A study of Mus musculus with 6 samples.

Results

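The 36 genes described here encode lysosomal enzymes, lysosomal membrane proteins and subunits of the vacuolar ATPase (V-ATPase). They were chosen by name, with earlier results of these data known, from the 21644 protein-coding genes of the annotation used. They comprised 11 proteases (9 cathepsins, legumain and Tpp1), 7 glycosidases, 6 lipid hydrolases and related proteins, 3 membrane proteins and 9 V-ATPase genes. The mark measured was acetylation of histone H3 at lysine 27 (H3K27ac), which decorates active promoters and enhancers, in alveolar macrophages (AMs), which patrol the airway side of the alveoli. The cells were AMs of WT C57BL/6J mice, 9 wk old per the study's methods, which were fixed and sorted from bronchoalveolar lavage, so no group differed from another in genotype or treatment. The assay was HT-ChIPmentation, in which Tn5 inserts the sequencing adapters while the chromatin is still on the beads. There was 1 library with the ActiveMotif antibody #39135 (Active Motif library) and 2 libraries with the Cell Signalling antibody #8173 (Cell Signaling replicates 1 and 2), and 3 inputs entered only through the authors' peak calling. The labels do not say whether the replicates came from separate animals. The labels do not give the sequencing run or sonicator of each library either. Effects of antibody, run, sonicator and depth therefore cannot be told apart, and no test between antibodies was run on 1 library against 2.

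The 3 peak lists held 36364 to 56175 peaks, and their read depth was not used here, so a missing peak means only that none was called. All 10 AM marker genes examined, such as Siglecf, Itgax and Pparg, had a promoter peak in every library. Of 12 marker genes of other lung and lavage cells, none had a promoter peak in the Active Motif library or in Cell Signaling replicate 2. The airway secretory cell gene Scgb1a1 had a peak, with a fold of 6.53, in Cell Signaling replicate 1.

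The lysosome breaks down proteins, glycans and lipids with hydrolases that work at acidic pH. That pH is set by the V-ATPase, whose V1 sector burns ATP outside the membrane and drives the V0 sector to move protons into the lumen. In AMs this machinery digests inhaled particles, dying cells and spent surfactant, and failure of several of these enzymes makes lipid or glycan accumulate in macrophages. Many lysosomal genes carry the CLEAR element (TCACGTGA with a G before and a C after it), an extended form of the E-box CACGTG to which the transcription factor TFEB and its relatives TFE3 and MITF bind.

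Because this element is the best known sequence shared by lysosomal promoters, the promoters were read first. RefSeq promoters (GRCm38.p6, the build of the peak lists), from 250 bases before to 50 bases after a start, were at hand for 29 of the 36 genes. Ctsb, Ctsh, Asah1, Atp6v1b2, Atp6v1c1, Atp6v1h and Atp6v0d2 had no entry. The E-box CACGTG, which reads the same on both strands, was present in 11 of 29 (37.9%), against 9.22% of the 16426 genes with a RefSeq promoter and 12.2% of the 8034 of them with an acetylated promoter. The longer palindrome TCACGTGA, which contains the E-box, was present in 6 of 29 (20.7%), against 1.46% of all and 2.39% of acetylated genes. The full CLEAR letters, which contain both shorter motifs, were in none of the 29, and in 0.493% of all genes. These counts are of letters in a window and are not evidence of binding. Stretches of the 200 bases before the RefSeq start show the range, with E-boxes (and their flanks where these complete TCACGTGA) in capitals. Lamp1 was the gene with the most E-boxes, Mcoln1 carried an E-box and a TCACGTGA, and Ctsk and Ctss were without any.
Lamp1 upstream (chr8:13158961-13159160, plus strand): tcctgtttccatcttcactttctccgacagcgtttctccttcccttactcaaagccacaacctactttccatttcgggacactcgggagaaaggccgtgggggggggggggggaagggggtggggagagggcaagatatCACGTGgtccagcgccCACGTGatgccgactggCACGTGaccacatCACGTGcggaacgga
Mcoln1 upstream (chr8:3500319-3500518, plus strand): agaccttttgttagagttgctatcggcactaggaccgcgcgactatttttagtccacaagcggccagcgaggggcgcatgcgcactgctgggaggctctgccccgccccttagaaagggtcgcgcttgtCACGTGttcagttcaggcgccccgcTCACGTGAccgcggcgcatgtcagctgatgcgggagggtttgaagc
Ctsk upstream (chr3:95499010-95499209, plus strand): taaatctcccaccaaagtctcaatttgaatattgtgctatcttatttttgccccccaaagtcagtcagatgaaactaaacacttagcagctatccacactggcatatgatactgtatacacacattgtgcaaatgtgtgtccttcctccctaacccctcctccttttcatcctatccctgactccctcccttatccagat
Ctss upstream (chr3:95526586-95526785, plus strand): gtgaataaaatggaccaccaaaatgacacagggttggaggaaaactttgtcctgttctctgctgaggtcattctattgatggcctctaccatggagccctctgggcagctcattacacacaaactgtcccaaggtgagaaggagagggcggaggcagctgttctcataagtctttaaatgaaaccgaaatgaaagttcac

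Lamp1 thus had 4 E-boxes, none of them flanked to give TCACGTGA. The upstream stretch of Ctsk held 0 CpG dinucleotides and that of Ctss 2, while those of Lamp1 and Mcoln1 held 13 and 19. Over the whole 300-base window the median of the 29 genes was 13.0 CpGs, against 15.0 for all genes and 23.0 for acetylated genes, and the range was 2 to 33. The other TCACGTGA matches of the 300-base window are shown with their surroundings as 30 bases each, the motif in capitals. Positions give the first base of the E-box counted from the start (+1).
Ctsa site at -12 (chr2:164833749-164833778, plus strand): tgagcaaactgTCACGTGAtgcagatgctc
Ctsa site at 6 (chr2:164833766-164833795, plus strand): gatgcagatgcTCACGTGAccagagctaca
Ctsd site at -98 (chr7:142387908-142387937, minus strand): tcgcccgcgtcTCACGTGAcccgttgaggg
Gla site at -227 (chrX:134601215-134601244, minus strand): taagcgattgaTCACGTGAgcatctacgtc
Gla site at -194 (chrX:134601182-134601211, minus strand): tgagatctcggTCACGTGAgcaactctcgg
Atp6v1a site at -131 (chr16:44139373-44139402, minus strand): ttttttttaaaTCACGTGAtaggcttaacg
Atp6v0d1 site at -3 (chr8:105566050-105566079, minus strand): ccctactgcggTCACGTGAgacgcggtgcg

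Both Ctsa matches lay at the downstream of its 2 RefSeq starts. Besides Lamp1, an E-box without these flanks was present in Ctsl, Lgmn, Gaa and Glb1, and in Ctsd and Mcoln1 in addition to the TCACGTGA. Genes with and without an E-box overlapped in their acetylation. The median percentile of promoter strength (the rank of the promoter peak among acetylated genes, taken as the middle of the 3 libraries) was 63.1 (range 41.7 to 99.1) for the 11 genes with one and 79.5 (12.5 to 99.7) for the 18 without. Acetylated bases within 5 kb of the transcription start site (TSS) had medians of 3216 (range 1473 to 10001) and 5866 (776 to 10001), respectively.

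Each of the 36 promoters was acetylated in each of the 3 libraries. A promoter was 1 kb either side of any TSS of the gene, and a peak had to overlap it by at least 1 bp. A promoter peak was present for 36 of 36 genes in the Active Motif library, against 40.9% of all 21644 genes. The count was also 36 of 36 in Cell Signaling replicate 1, against 47.8%, and in replicate 2, against 48.8%. All 36 had one in all 3 libraries, as did 40.8% of all genes. Since the 36 genes were chosen with earlier results of these data known, these shares describe the list and test nothing. When peaks of the Cell Signaling replicates were merged into stretches holding a peak of each (shared regions), 36 of 36 promoters were overlapped, against 46.4%.

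The peaks at these promoters were also stronger than those of most acetylated genes. Strength was the fold of the strongest promoter peak over the background of the caller, and its percentile was the rank among all genes with a promoter peak in that library. Folds of the 36 genes lay between 4.61 and 40.9 with the Active Motif antibody (median 17.1). They ran between 6.53 and 76.5 in replicate 1 (median 35.0) and between 13.2 and 56.6 in replicate 2 (median 35.9). All genes with a promoter peak had medians of 11.1, 19.2 and 26.9 in the same order, which is kept for every run of 3 values from here on. Of the 36 genes, 28, 31 and 27 were above those medians, and 10, 10 and 9 were at or above percentile 90. The median percentiles of the 36 genes were 75.5, 78.5 and 72.4. Both the strongest and the weakest member in replicate 1, Atp6v0a1 and Smpd1, held those places in the Active Motif library too.

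**Figure D1:**
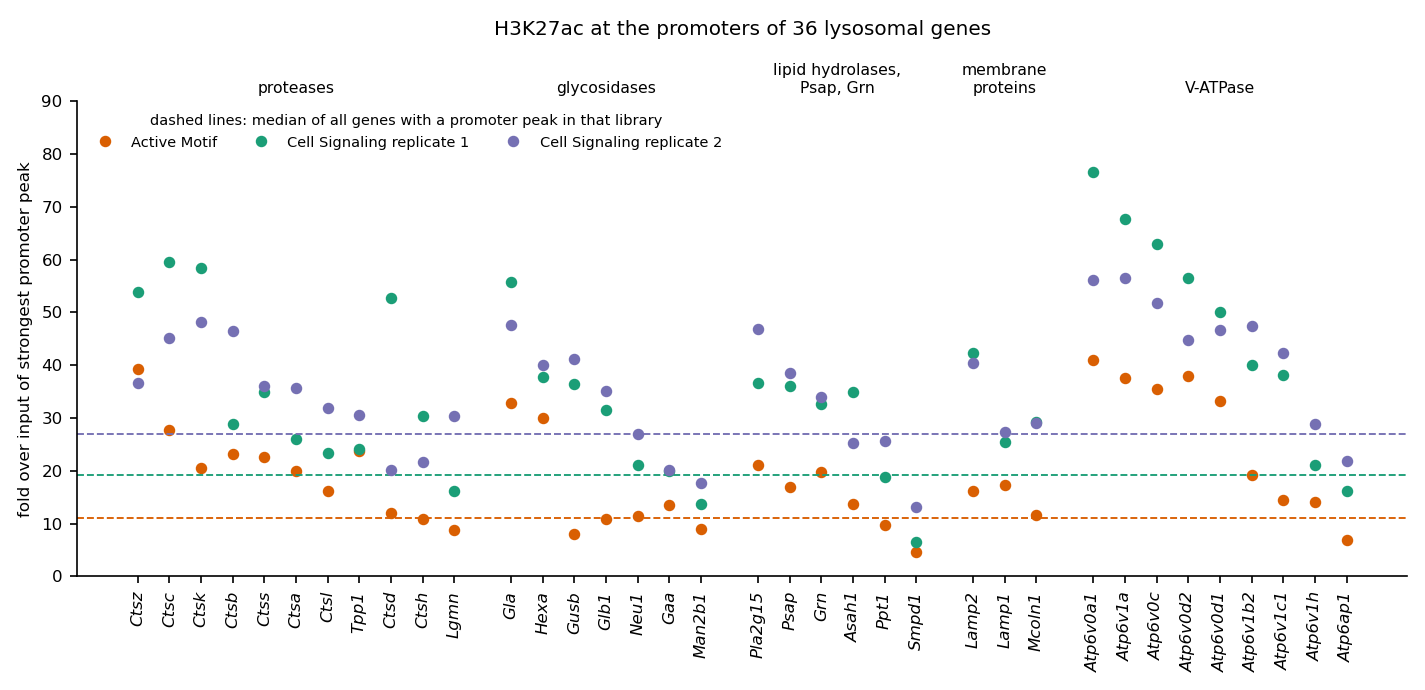
Strongest promoter peak of each of the 36 genes in 3 libraries, with 1 point per library. The vertical axis, labelled fold over input, is the fold over local background as the authors' caller gave it. Genes (horizontal axis) are ordered by role and by median percentile within a role. Dashed lines are the medians of all genes with a promoter peak in each library (11.1, 19.2 and 26.9). Most points lie above the line of their own colour, and the 5 V-ATPase genes to the left of their group exceed a fold of 30 in every library.

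Among the proteases, the cysteine cathepsin genes Ctsz, Ctsc and Ctsk had the strongest promoters. Cathepsin Z, a carboxypeptidase, had promoter folds of 39.2, 53.8 and 36.7 at Ctsz (chr2:174427493-174439039). Ctsc (chr7:88278085-88310888) encodes the dipeptidyl peptidase that activates serine proteases of leukocyte granules, and its folds were 27.7, 59.6 and 45.1. Ctsk (chr3:95499256-95509362), which encodes a collagen- and elastin-degrading protease, had folds of 20.6, 58.4 and 48.2. These 3 genes had median percentiles of 94.6, 94.3 and 94.2 across libraries, and replicate 2 placed Ctsz lower, at 74.0, than the other libraries did. Ctsb, which encodes a broad endopeptidase, followed with folds of 23.2, 28.8 and 46.5. The replicate 1 peaks of Ctsz, Ctsk and Ctsb overlapped the promoter but had summits outside it, 1126, 1131 and 1642 bp downstream of the TSS.

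The other proteases were closer to the middle of the acetylated genes. Folds at Ctss, whose product trims the invariant chain of MHC class II, were 22.6, 35.0 and 36.1. At Ctsa, which encodes the carboxypeptidase that protects Neu1 and Glb1, they were 20, 26.1 and 35.7. Ctsl had 16.2, 23.4 and 31.8, and the tripeptidyl peptidase gene Tpp1 had 23.8, 24.2 and 30.5. Tpp1 had percentiles of 90.2, 61.0 and 58.8, and was the gene in this group with the fewest acetylated bases nearby. Ctsh, which encodes an aminopeptidase, had folds of 10.9, 30.4 and 21.7, with percentiles of 49.0, 72.0 and 37.1. Lgmn (chr12:102394084-102439813), which encodes the asparaginyl endopeptidase legumain, had folds of 8.82, 16.1 and 30.4, and its median percentile of 41.7 was the lowest of the proteases.

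Ctsd (chr7:142375911-142388038), which encodes the aspartic protease cathepsin D, gave the largest difference between the Cell Signaling replicates. Its folds were 12, 52.7 and 20.1, and its percentile was 94.0 in replicate 1 and 33.0 in replicate 2, a difference of 60.9. The replicate 1 peak was wide and had its summit at -10545 bp (negative distances are upstream of the TSS), whereas the summits in the Active Motif library and replicate 2 lay 473 and 286 bp downstream. The strongest replicate 1 peak with its summit inside the promoter had a fold of 36.9. Over all 36 genes the median difference between the replicates was 4.86 percentiles.

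The glycosidase promoters ranged from very strong to weak. Gla (chrX:134588149-134601125) encodes α-galactosidase A, which removes galactose from glycolipids, and had folds of 32.8, 55.7 and 47.6 (median percentile 95.5). Hexa, which encodes the α subunit of β-hexosaminidase, had 30, 37.7 and 40.1. At Gusb, the β-glucuronidase gene, the folds were 8.01, 36.5 and 41.2. Gusb thus ranked at percentile 30.3 in the Active Motif library but at 80.5 and 83.4 in the Cell Signaling replicates, and its Active Motif and replicate 1 summits lay 1553 and 1720 bp downstream of the TSS.

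Genes for the remaining glycosidases were moderate or low. Glb1 (β-galactosidase) had folds of 10.9, 31.5 and 35.1, and Neu1 (sialidase) had 11.5, 21.1 and 26.9. Gaa, which encodes the enzyme that degrades lysosomal glycogen, had 13.6, 20 and 20.2. Man2b1 (chr8:85083270-85098282), the gene for α-mannosidase, had 8.99, 13.8 and 17.7, and its median percentile of 35.2 was the lowest of the glycosidases. Man2b1 was below the median of all acetylated genes in every library.

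Genes for lipid breakdown, which bear on surfactant turnover in AMs, held both strong promoters and the weakest one of all. Pla2g15, which encodes the lysosomal phospholipase A2 needed by AMs to clear surfactant phospholipid, had folds of 21.1, 36.6 and 46.9. Psap, which encodes the precursor of the saposin activators of sphingolipid hydrolases, had 17, 36.1 and 38.6. Its strongest peaks had summits at -2147, -2222 and -2173 bp from the nearest Psap TSS, so none had its summit inside the promoter. The most acetylated Psap TSS (chr10:60284461) lies inside the gene, whose annotated 5' end is at chr10:60277627. These negative distances thus do not place the summits upstream of the gene. Grn, which encodes the lysosomal glycoprotein progranulin, had 19.7, 32.7 and 33.9. The ceramidase gene Asah1 had 13.7, 35.0 and 25.3, and Ppt1 (chr4:122836242-122859175), which encodes a palmitoyl-protein thioesterase, had 9.80, 18.8 and 25.6 (median percentile 46.7). Smpd1 (chr7:105554360-105558389), the gene for acid sphingomyelinase, had 4.61, 6.53 and 13.2. Smpd1 was the weakest of the 36 in every library, at percentiles of 4.15, 12.5 and 17.6, and was the gene lost in the Active Motif library when peaks had to pass a q-value of 1e-05.

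The 3 membrane protein genes had intermediate promoters. Lamp2, which encodes a glycoprotein of the lysosomal membrane with a part in chaperone-mediated autophagy, had folds of 16.2, 42.3 and 40.5. Lamp1, which encodes its close relative, had 17.3, 25.4 and 27.4. Mcoln1, which encodes the lysosomal calcium channel TRPML1, had 11.6, 29.2 and 29.0. Their median percentiles were 82, 63.1 and 55, so Lamp1, with the most E-boxes, was between the others.

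The V-ATPase genes held the strongest promoters of the 36, with a group median percentile of 92.3, against 72.1 for proteases, 70.9 for glycosidases, 69.4 for lipid hydrolases and related genes and 63.1 for membrane proteins. In the proton-moving V0 sector, Atp6v0a1 (chr11:101009452-101063719), which encodes an a subunit, had folds of 40.9, 76.5 and 56.1. Its percentiles were 99.7, 99.9 and 99.3. The gene for the c subunit of the proteolipid ring, Atp6v0c (chr17:24163866-24169702), had folds of 35.4, 63.0 and 51.8 and a median percentile of 98.0. The d subunit, which couples the ring to the central stalk, is encoded by a pair of genes. Atp6v0d1 (chr8:105524465-105566047), the broadly expressed form, had folds of 33.2, 50 and 46.7, and Atp6v0d2 (chr4:19876841-19922605), the form known from osteoclasts and macrophages, had 37.9, 56.5 and 44.7. The pair thus had similar promoter folds, and Atp6v0d2 was higher in 2 of 3 libraries. They differed in extent: acetylated bases within 5 kb of the TSS were 2636, 2929 and 3542 at Atp6v0d1 and 9504, 9537 and 9703 at Atp6v0d2, without overlap.

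Genes of the V1 sector spanned a wider range. Atp6v1a (chr16:44085402-44139705), which encodes the catalytic A subunit, had folds of 37.5, 67.7 and 56.6 and a median percentile of 99.1. The B subunit gene Atp6v1b2 had 19.3, 40.0 and 47.4, and the C subunit gene Atp6v1c1 had 14.5, 38.1 and 42.3. Atp6v1h, which encodes the regulatory H subunit, had 14.1, 21.1 and 28.9. Its acetylated TSS (chr1:5083080) lay 13.1 kb inside the annotated 5' end of the gene, which itself had no peak in any library. The accessory subunit gene Atp6ap1 (chrX:74297097-74304721) was low, with 6.82, 16.1 and 21.9 and a median percentile of 37.8.

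Most genes of the complex beyond these 9 had an acetylated promoter as well, and those without a promoter peak were mostly alternative forms of subunits. Among 16 further V-ATPase genes, 10 promoters were marked in all 3 libraries, as were 40.8% of all genes, and 5 in none. Atp6v1b1 had a peak only in Cell Signaling replicate 1, with a fold of 3.46. The 5 without were Atp6v1c2, Atp6v1e2, Atp6v1g3, Atp6v0a4 and Atp6v0e2. Each of these 6 genes encodes an alternative form of a subunit for which another gene was acetylated in all 3 libraries: Atp6v1b2, Atp6v1c1, Atp6v1e1, Atp6v1g1, Atp6v0a1 and Atp6v0e. Alternative forms could be acetylated too, as Atp6v0a2 had folds of 11.9, 20.9 and 40.8. Atp6v1g3, though without a promoter peak, was nearest to 8 distal shared regions, of which 7 held an Active Motif peak. Atp6v1b1 and Atp6v0a4 are best known from the acid-secreting cells of the kidney. The Atp6v1g2 gene, known from neurons, had folds of 13.1, 41.1 and 40.3, but its promoter window also holds a TSS of Nfkbil1 on the other strand, and the source of the peak cannot be told apart. The median percentile of the acetylated genes among the 16 was 75.9.

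**Figure D2:**
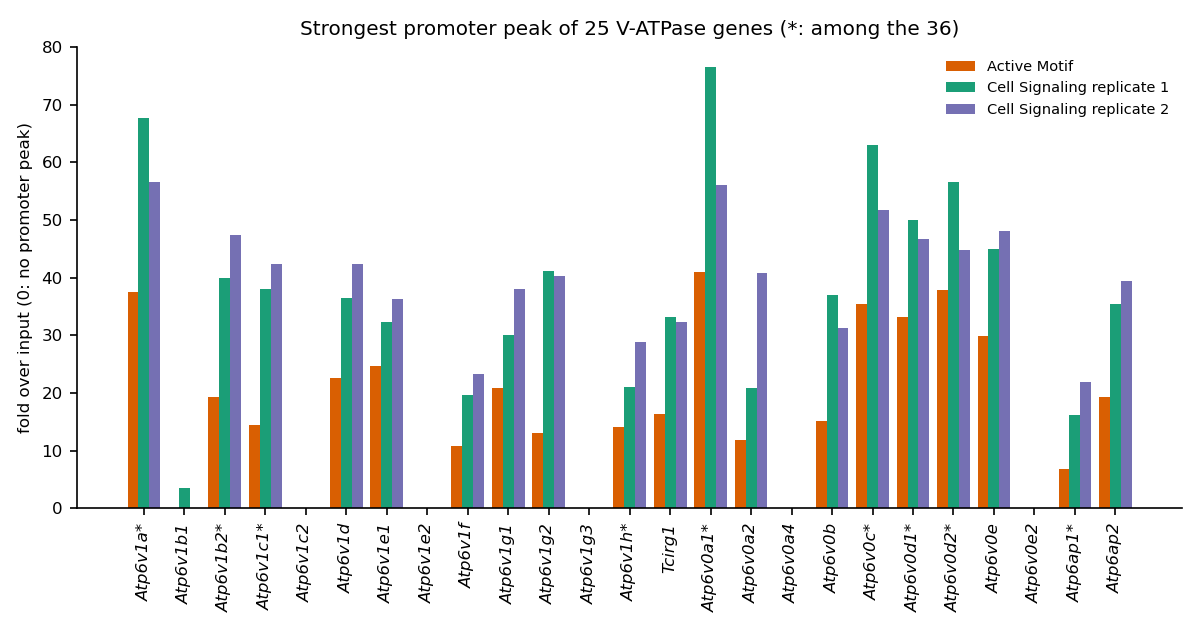
Strongest promoter peak of 25 V-ATPase genes in 3 libraries, with 1 bar per library and no bar where no promoter peak was called. The vertical axis (from 0), labelled fold over input, is the fold over the caller's local background. Genes marked with an asterisk are the 9 among the 36. Atp6v0a1 and Atp6v1a have the tallest bars, and 5 genes have none.

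Shared promoters limit the assignment of some peaks. Another TSS lay within 1 kb of a TSS of Ctsa (Neurl2), Gla (Hnrnph2), Glb1 (Tmppe), Atp6v1a (Naa50), Atp6v1b2 (Slc18a1), Atp6v1h (Rgs20) and Atp6v0d1 (the long non-coding gene Gm38250). For these 7 genes a promoter peak could belong to either gene. Gla and Atp6v1a, with strong promoters, are among them.

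Acetylation extended farther around these genes than around other acetylated genes, and mainly into the transcribed side. Bases under a peak were counted in a window of 10001 bp centred on a TSS, taking for each gene the start with the highest count. They had medians of 3047, 3798 and 5266, against 1274, 1750 and 2013 for all genes with a promoter peak. Under shared regions the median was 5246 bp, against 2099 bp for the 10050 genes with an acetylated promoter, and 29 of the 36 were above that background median. The side of transcription had a median of 3338 bp and the upstream side 1528 bp, against 1045 and 887 bp. More bases lay downstream than upstream in 28 of the 36 genes (77.8%), against 60.3% of acetylated genes. In the 100-bp bin centred 2050 bp downstream, 69.4% of the 36 genes and 19.4% of acetylated genes were inside a shared region.

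The shared region over the promoter was at least 10 kb wide at 5 of the 36 genes (13.9%), as at 0.970% of all genes and 2.09% of genes with an acetylated promoter. It was 25904 bp at Ctsd, 18775 bp at Atp6v0d2, 13881 bp at Psap, 12940 bp at Hexa and 12023 bp at Ctsk. These genes were broad in every library: acetylated bases were 8088, 9575 and 10001 at Ctsd, 7378, 9063 and 10001 at Psap, and 8578, 9561 and 9869 at Ctsk. At the other end was Smpd1, with 204, 441 and 776 bp. Tpp1 was the next in the Cell Signaling replicates, with 885, 974 and 1077 bp, and Gaa the next in the Active Motif library, with 848 bp. The Tpp1 promoter had stood above the median of acetylated genes in strength in all 3 libraries, so strength and extent were different measures. Man2b1 was the reverse, with a weak promoter but 1942, 3767 and 5766 bp.

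**Figure D3:**
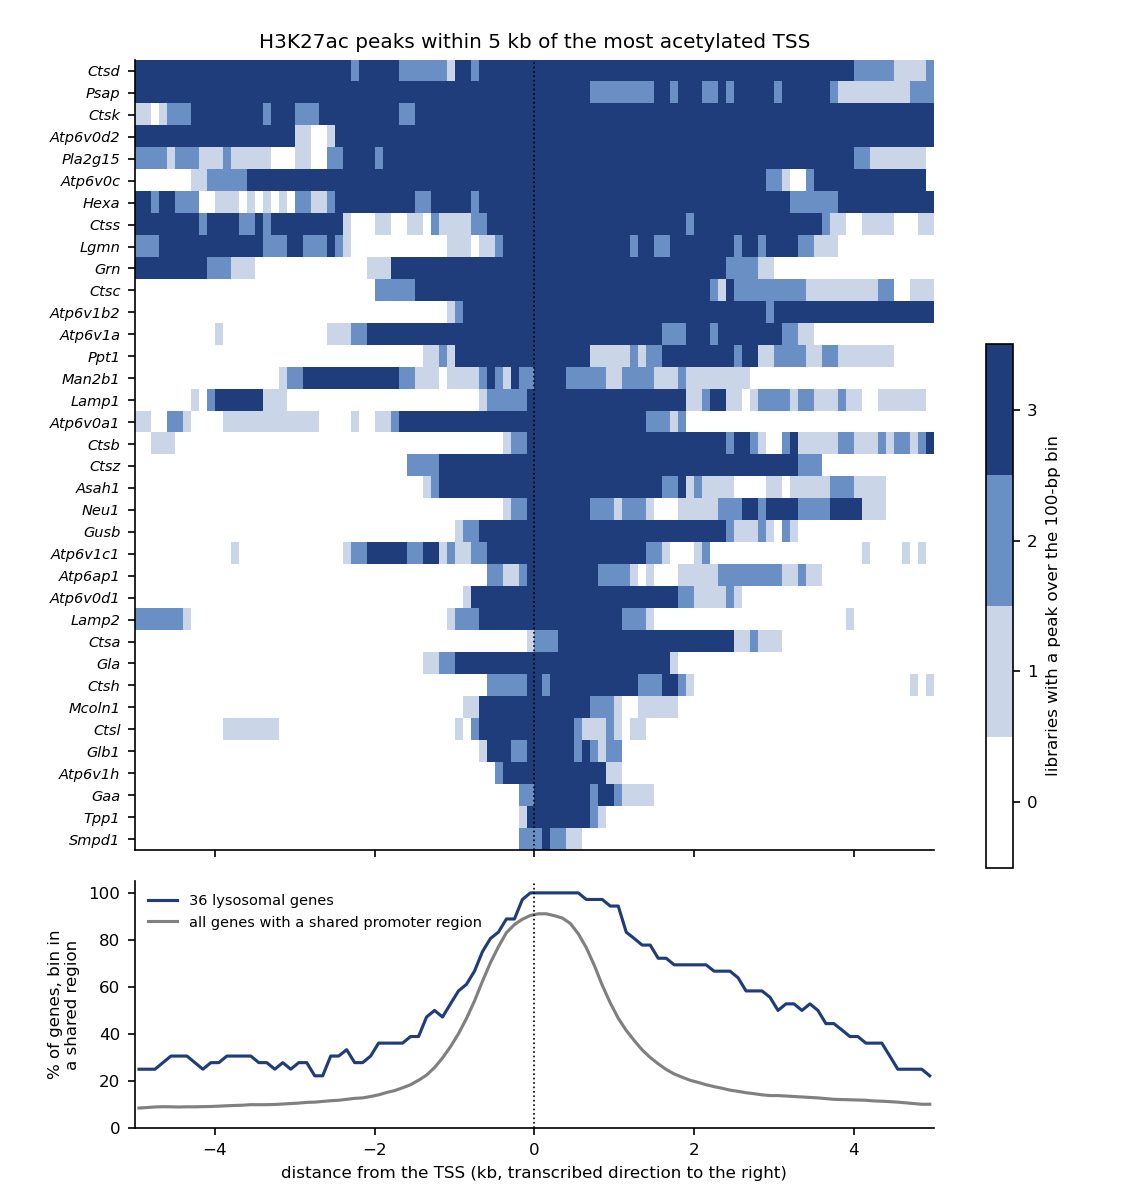
Upper panel, number of libraries (0 to 3) with a peak over each 100-bp bin within 5 kb of the most acetylated TSS of each gene, with genes ordered by acetylated bases under shared regions. Lower panel, share of the 36 genes and of all genes with an acetylated promoter (%) for which the bin lay in a shared region, against distance from the TSS in kb. The curve of the 36 genes stays higher than the other across the window, most of all on the transcribed side, and rows range from Ctsd, covered almost throughout, to Smpd1.

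The Active Motif library had the fewest acetylated bases at 36 of 36, as at 98.2% of the 8831 genes with a promoter peak in all 3 libraries. Replicate 2 had more bases than replicate 1 at 33 of the 36 genes, as at 84.2% of those genes. These directions were thus those of nearly all acetylated genes. Promoter percentiles were higher in replicate 1 at 25 genes and in replicate 2 at 11. This split was not counted over all genes, so it cannot be read as particular to the 36.

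Away from promoters, 97 distal shared regions (midpoint over 3 kb from any TSS) had 1 of the 36 genes as the nearest, a mean of 2.69 per gene. The mean was 0.816 over all genes and 1.43 over genes with an acetylated promoter. At least 1 such region was nearest to 25 of the 36 genes (69.4%), against 26.3% of all genes and 40.9% of genes with an acetylated promoter. Proteases had 36 of the regions and V-ATPase genes 37, while glycosidases had 8, lipid hydrolases and related genes 12 and membrane proteins 4. Of the 97, 50 lay between protein-coding genes, 34 inside the gene itself and 13 inside another gene. An Active Motif peak was present in 54 (55.7%), against 51.4% of all distal shared regions. Their median width was 1555 bp and their median distance 16.5 kb, against 1221 bp and 23.0 kb. Among them, 3 (at Ctsd, Hexa and Atp6v0d2) were the wide regions above that also reached the promoter. Counted in each library's own list, with no merging and no peak required in another library, distal peaks of the 36 genes numbered 132, 185 and 211. The mean per gene over all genes, counted in the same way, was 0.921, 1.65 and 1.53. Nearest position was the only link to a gene, and which promoter a region acts on was not measured.

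Ctsc had the most distal regions, 13, of which 8 held an Active Motif peak. The strongest were centred at -34.4 and -26.6 kb. The first of these had folds of 14.4, 48.8 and 40.7 and the other 18.3, 48.8 and 40.8, each below the Ctsc promoter in the same library. A further 7 regions stretched to -76.1 kb, and 4 lay downstream of the TSS. Atp6v1c1 had 10, with the strongest at -10 kb with folds of 22.2, 43.4 and 37.9. This region was stronger than the promoter of the gene in the Active Motif library and in replicate 1. Atp6v1b2 had 8, of which a region of 16649 bp centred at -76.0 kb had folds of 25.1, 50.7 and 48.7. Of the 8, 5 lay on the far side of Slc18a1 and 3 inside that gene.

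Atp6v0d2 and Lgmn had 7 each, and those of Atp6v0d2 include the wide region that also reached its promoter. Of those of Atp6v0d2, 6 held an Active Motif peak, and a region of 7536 bp inside the gene, 27.2 kb downstream of the TSS, had folds of 38.8, 46.5 and 39.7. It was slightly above the promoter of the gene in the Active Motif library, where the promoter had 37.9, and below it in the Cell Signaling replicates. At Lgmn, the region upstream, at -12.6 kb, had folds of 17, 27.3 and 33.7, and thus exceeded the promoter in each library. Of the other regions, 4 lay inside the neighbouring gene Rin3, from 56.0 to 69.6 kb downstream. Ctsh, whose promoter was moderate, had a region at -11.1 kb with folds of 19.5, 50.4 and 40.8. No distal shared region was assigned to Ctsa, Ctsz, Gaa, Gla, Glb1, Man2b1, Smpd1, Mcoln1, Atp6v1h, Atp6v0c or Atp6ap1. Strong promoters (Ctsz, Gla and Atp6v0c) and weak ones (Smpd1, Man2b1 and Atp6ap1) were both among these 11.

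**Figure D4:**
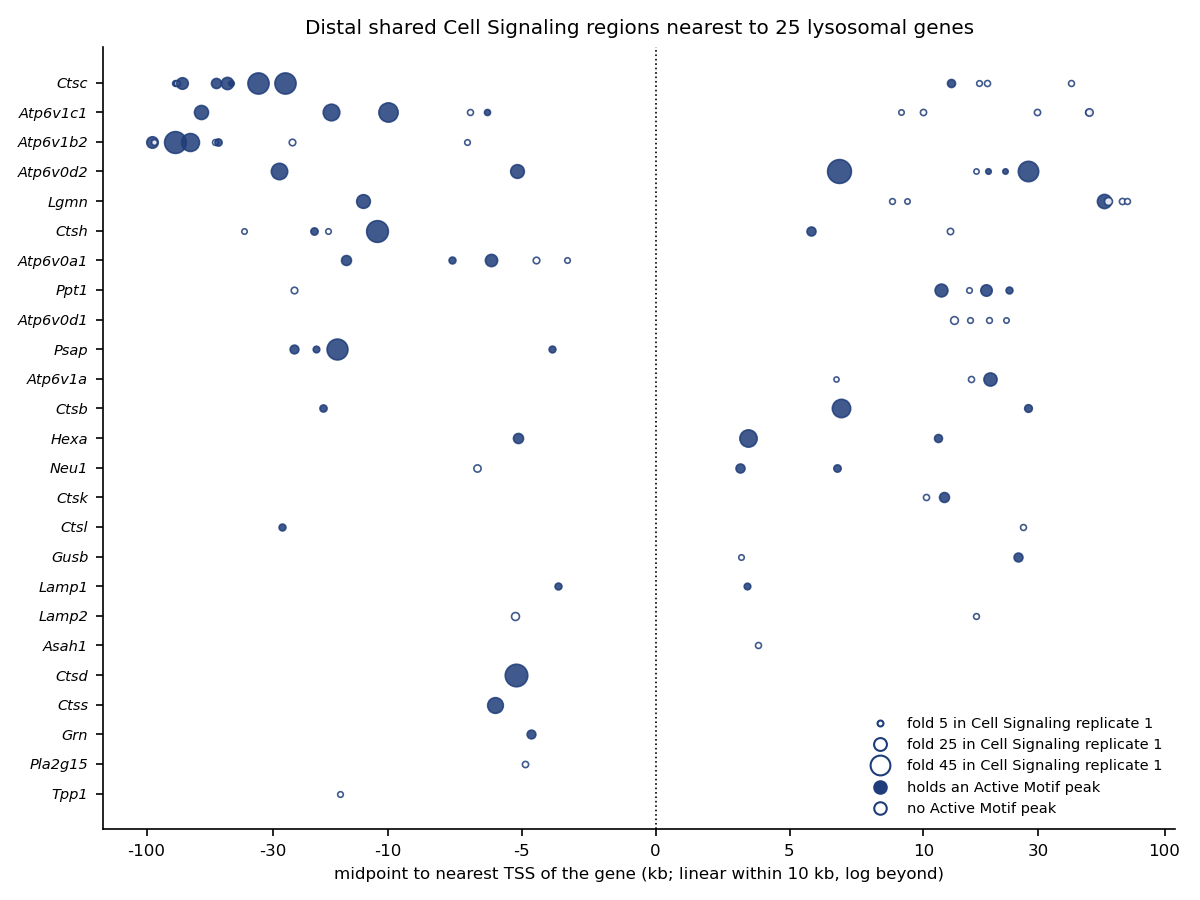
Distance in kb from the TSS (horizontal axis, linear within 10 kb and logarithmic beyond) to the midpoint of each of the 97 distal shared regions, for the 25 genes with any. Point size grows with the fold in Cell Signaling replicate 1, and filled points hold an Active Motif peak. Ctsc, Atp6v1c1 and Atp6v1b2 have the most points, and their largest points are filled and lie upstream.

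Windows of 200 bases around the replicate 1 summits of the 97 regions were searched on both strands for 6 motifs. For the wide Hexa and Atp6v0d2 regions that reached the promoter, the window lay within 1 kb of the TSS and is thus promoter sequence. The PU.1-type motif GAGGAAGT was in 6 (6.19%, against 4.99% of all 17656 distal regions), and the AP-1 motif TGANTCA was in 10 (10.3% against 9.67%). The C/EBP motif TTGCNNAA was in 6 (6.19% against 11.3%), the E-box CACGTG in 2 (2.06% against 3.15%) and the M-box TCATGTGA, a variant bound by MITF, in 3 (3.09% against 1.74%). The direct repeat of AGGTCA with 1 base between, to which PPAR and RXR bind, was in none, as for all but 0.0623% of distal regions. No share was tested against the background. A pair of windows is shown, since they are among the strongest distal summits of Psap and Ctsc and hold matches, with motif letters in capitals.
Psap distal summit (chr10:60261024-60261223, plus strand): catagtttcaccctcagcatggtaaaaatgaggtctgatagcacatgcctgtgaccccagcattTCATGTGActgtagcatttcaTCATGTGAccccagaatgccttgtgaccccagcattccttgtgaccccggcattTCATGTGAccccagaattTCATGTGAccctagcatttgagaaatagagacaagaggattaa
Ctsc distal summit (chr7:88243123-88243322, plus strand): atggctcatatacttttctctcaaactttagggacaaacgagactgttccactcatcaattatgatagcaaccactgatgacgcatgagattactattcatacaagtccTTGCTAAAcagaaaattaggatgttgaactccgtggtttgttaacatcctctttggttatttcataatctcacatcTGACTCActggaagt

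The Psap window, from a region centred at -16.2 kb with folds of 10.5, 48.0 and 35.3, held the M-box 4 times within a repetitive stretch. That of Ctsc held an AP-1 and a C/EBP match. The other M-box windows were nearest to Ctsk and Atp6v1c1, and the promoters of Psap and Ctsk held no E-box.

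A view of 3 loci shows the range. From 30 kb upstream to 60 kb downstream of the 5' end, Atp6v0d2 had 22, 22 and 18 peaks. Ctsk had 17, 12 and 19, which include those of the neighbouring gene Ctss. Smpd1 had 1, 2 and 1. Ctsk and Ctss lie in tandem on chromosome 3, with distal shared regions between them. A region of 3008 bp 12.2 kb downstream of the Ctsk TSS had folds of 8.17, 16.5 and 22.3. A region of 7341 bp at -5.99 kb from the Ctss TSS had 17.6, 33.1 and 26.9. The former ended at chr3:95512950 and the latter began at chr3:95517128, with no shared region in the gap. Whether either region acts on the other gene was not tested. At Ctss itself, acetylated bases within 5 kb were 6581, 7136 and 8828.

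**Figure D5:**
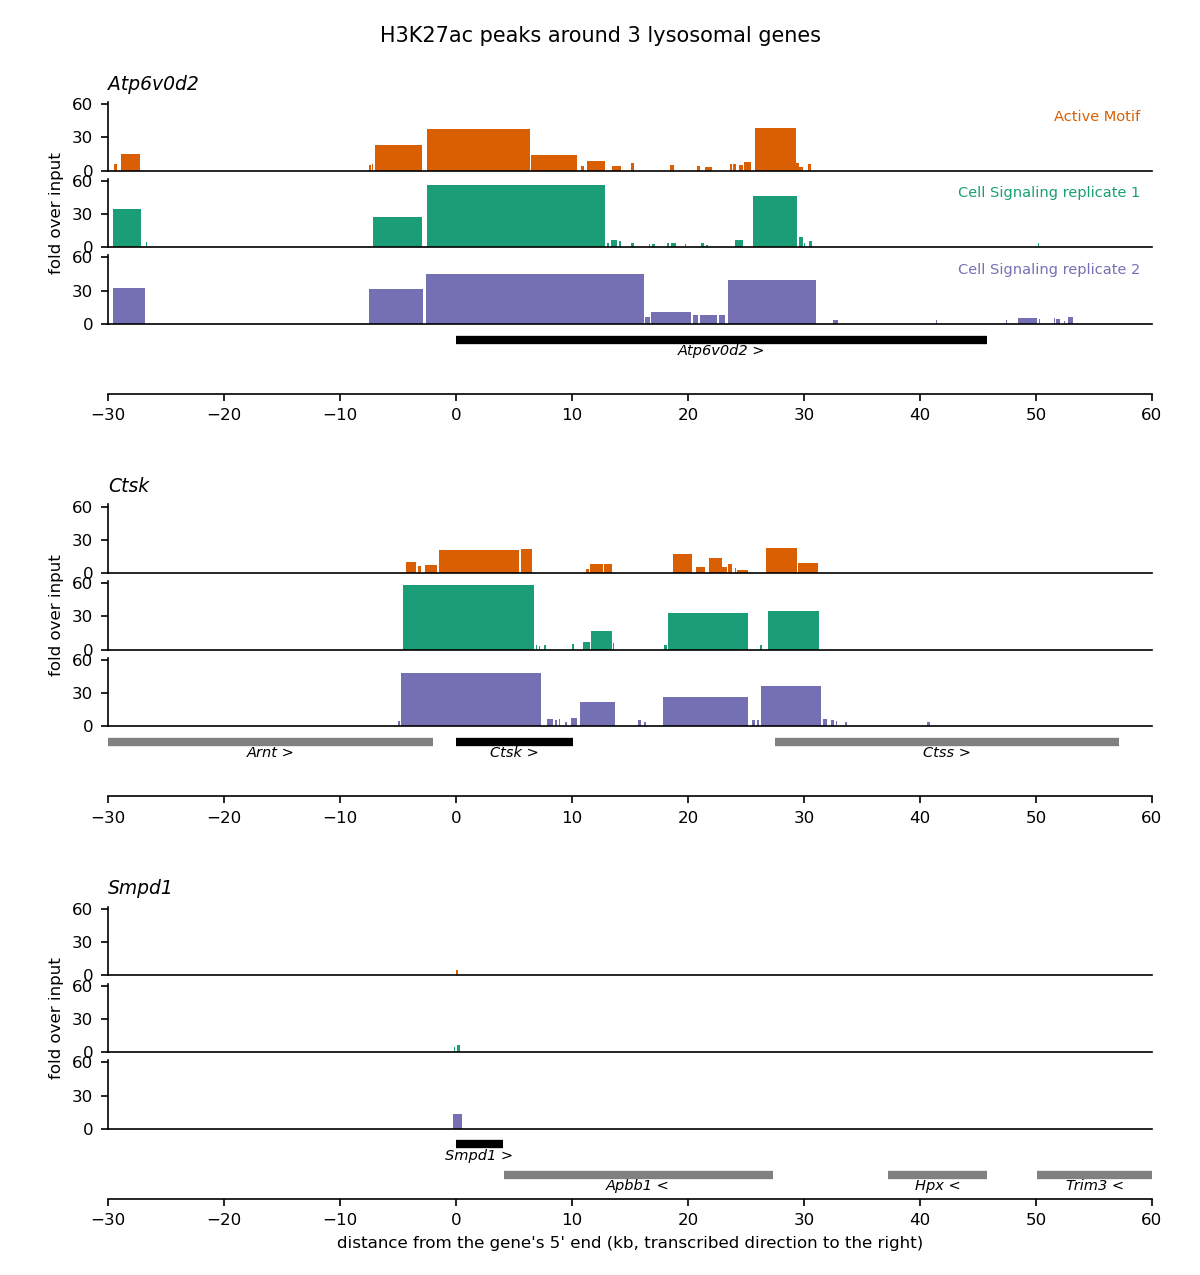
Peaks of the 3 libraries around the 5' end of Atp6v0d2, Ctsk and Smpd1, with distance in kb along the horizontal axis and transcription of the named gene to the right. Bar height (labelled fold over input) is the fold of the peak over the caller's local background, and bar width is its extent. Gene bodies are drawn below (black for the named gene). Wide, high peaks cover the promoter and inner region of Atp6v0d2 in every library, while Smpd1 has only narrow, low peaks at its start.

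The remaining lysosomal genes of the lists examined were mostly acetylated too, with a few exceptions. Among 28 further hydrolases and activators, 22 promoters were marked in every library, against 40.8% of all genes. Ctse, Ctsg, Ctsw and Sgsh were without a promoter peak in each library, Ctsf had one only in replicate 2, with a fold of 3.01, and Ids had folds of 9.99 and 14.6 in replicates 1 and 2 and none in the Active Motif library. Cathepsins E, G and W are known from other cells, such as gastric and lymphoid cells, neutrophils and cytotoxic lymphocytes, while Sgsh and Ids encode sulfatases of heparan sulfate breakdown. The median percentile of the acetylated genes among the 28 was 54.2.

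Among 24 further membrane proteins and transporters, 19 promoters were marked in every library, and the acetylated genes had a median percentile of 79.6. Lamp3, known from dendritic cells and type II pneumocytes, was without a promoter peak in each library, as were Tpcn1 and Igf2r. Cd63, which encodes a tetraspanin of late endosomes, had folds of 7.30 and 8.36 in the Cell Signaling replicates and no Active Motif peak, and Abca2 had a peak only in replicate 2, with a fold of 4.69. Side by side, 36 of 36, 10 of 16, 22 of 28 and 19 of 24 genes were acetylated in all 3 libraries, against 40.8% of all genes. The 36 had been chosen with earlier results of these data known.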

How the data were processed

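The 36 genes, the other lists and the measures were chosen with earlier results of these data known. Per the study's methods, the authors trimmed reads with Cutadapt, aligned them to mm10 with Bowtie2, marked duplicates with Picard, dropped them with samtools and called peaks per library with MACS3 against an input control at a q-value of 0.05. The submitters' processing notes also name CASAVA, SAMtools and bcl2fastq 2.20.0.422. The deposited peak lists hold, as the authors' caller wrote them, each peak's fold (a linear ratio to local background), its p-value and q-value as −log10, its summit offset and a score that was not used. Because the lists are without read counts, no counting interval was given, and sequencing depth was not used.

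TSS were the 52482 starts of basic transcripts of GENCODE vM21 on 20 chromosomes. Of 127 listed symbols, 1 (Ifi30) did not match. Shared regions were merged peaks (overlap of 1 bp) with a peak of each Cell Signaling replicate. Percentiles count ties at the middle. All 36 genes are accounted for. Named in full were the 5 with the highest and lowest median percentiles, the 5 with the most and all with no distal regions, Atp6v0d1 with Atp6v0d2, Ctsk with Ctss, and genes with TCACGTGA, and of the other lists the genes without a promoter peak in at least 1 library. Functions were tested on simulated peaks. Python 3.11.15, numpy 2.4.6 and matplotlib 3.10.9 were used. No test was run.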

Additional observations from a re-analysis of the deposited data

How the results depend on the processing

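Counts of acetylated promoters stayed within 1.5 times of those given under every alternative tried. With the annotated 5' end as the only TSS, 35 of 36 genes had a peak in each library (Atp6v1h lost), and at a q-value of 1e-05 the Active Motif count was 35 (Smpd1 lost). Where the summit had to lie inside the promoter, 32, 29 and 35 genes had a peak (27 in all 3 libraries). The Active Motif library then lost Gusb, Psap, Lamp1 and Atp6v1b2. Replicate 1 lost Ctsb, Ctsk, Ctsz, Gusb, Pla2g15, Psap and Grn, and replicate 2 lost Psap. Where 50% of both peaks had to overlap, 32 genes had a shared region. No share over all genes was at hand under these alternatives, so these promoter counts describe the 36 genes only. Distal regions fell to 58 when the limit was 10 kb, and with a Cell Signaling replicate left out they were 185 to 211, where peaks were neither merged nor required in both replicates. The mean over all genes also moved, from 0.816 to 0.570 with the 10-kb limit and to 1.53 to 1.65 with a replicate left out. The median of acetylated bases was 3178 within 2 kb and 3047 in the Active Motif library, and with a replicate left out it was 3798 to 5266. The Active Motif median percentile was 80.5 by −log10 q. The other 57 values under an alternative moved by less than the limits set. Using the TSS of all transcripts, and ranking only peaks with the summit inside the promoter, were chosen after seeing the data. No paired analysis was possible because the antibody groups share only 1 replicate number and no test was run. Read depth was not used here, so its part in weak or missing peaks such as those of Ids and Cd63 was not tested.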
